A study of Mus musculus with 7 samples.

Results

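Platelet-bearing neutrophils were taken here as blood neutrophil barcodes that held at least 2 unique molecular identifiers (UMIs, each 1 captured transcript) of Pf4, Ppbp and Gng11. A barcode counted as a neutrophil where S100a8 and S100a9 made up at least 3% of its UMIs and Cd79a, Cd79b, Cd3e and Nkg7 together gave fewer than 3 UMIs. This rule kept 116 cells of 4952 blood neutrophils, among 6241 blood barcodes and 21763 barcodes in the whole series. Of these, 19 came from blood run 1 and 97 from blood run 2. They were compared with the 4461 neutrophils of the same libraries that held 0 such UMIs, while 375 neutrophils with exactly 1 lay between. The members were chosen by the UMIs of those genes, so the levels of Pf4, Ppbp, Gng11, S100a8 and S100a9 below are a description and carry no test.

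Platelets are fragments of megakaryocytes that have no nucleus but keep messenger RNA from their parent cell. They store chemokines and adhesion proteins in granules and bind neutrophils, among other contacts, through P-selectin on the platelet and PSGL-1 (Selplg) on the neutrophil, and through GPIb on the platelet and the integrin Mac-1 (Itgam and Itgb2) on the neutrophil. Pf4 encodes platelet factor 4 (CXCL4), Ppbp the precursor of CXCL7, and Gng11 a G protein gamma subunit that is abundant in platelets. A droplet that captures a neutrophil with an adherent platelet, a neutrophil beside a loose platelet, or a neutrophil in fluid with free platelet RNA gives the same kind of barcode, and these cannot be told apart in counts.

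The series sorted CD11b+ Ly6G+ PI-negative live cells of male C57BL/6J mice and captured them on the 10X platform. Healthy peripheral blood, bone marrow and spleen each gave 1 library in run 1 and 1 in run 2, made from untreated mice whose cells were pooled within a library by the study's methods. A further library carried cells marked by hashtags. They came from blood of healthy control mice and from treated mice aged 8 weeks. The treated mice gave blood and joint lavage in K/BxN serum arthritis (150 µl of serum on days 0 and 2, harvest on day 7). They also gave lung and peritoneal lavage 3 h after 25 ng of IL-1β. By the study's methods the healthy mice were 6 weeks old in run 1 and 8 weeks in run 2, so age and run cannot be told apart. Each healthy group is 2 pooled libraries, so p-values do not measure the spread between mice. With the library as a block they rest on how class differences varied between 2 libraries, with spread borrowed from all genes.

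Blood neutrophils were shallow, with a median of 809 UMIs per cell in run 1 and 824 in run 2. The classes summed to 14088 and 79468 UMIs for platelet-bearing cells and to 926614 and 2471011 UMIs for 0-UMI cells, outside the 9 genes of the rule, so that 1 UMI was worth 71.0 CPM (UMIs per 1000000 UMIs of the sum) in the run 1 members and 12.6 CPM in the run 2 members. Run 2 blood also held many red-cell barcodes (716 of its 1006 barcodes outside the neutrophil gate had haemoglobin at 50% or more of their UMIs), and its neutrophils carried more haemoglobin than those of run 1. Blood run 1 and run 2 shared 13 barcode sequences, and 2 of the 97 run 2 members had a barcode that also occurred in another library.

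In run 1, 14 members held 2 platelet UMIs, 3 held 3, 1 held 5 and 1 held 12. In run 2, 53 members held 2, 22 held 3, 5 held 4, 9 held 5, 3 held 6 to 9 and 5 held 10 or more, with a maximum of 14. Most members therefore sat just inside the limit, and 77 and 298 neutrophils with 1 UMI sat just outside it. The variance of platelet UMIs per neutrophil was 2.41 times its mean in run 1 and 2.75 times in run 2, a description of the values that the rule used.

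**Figure D1:**
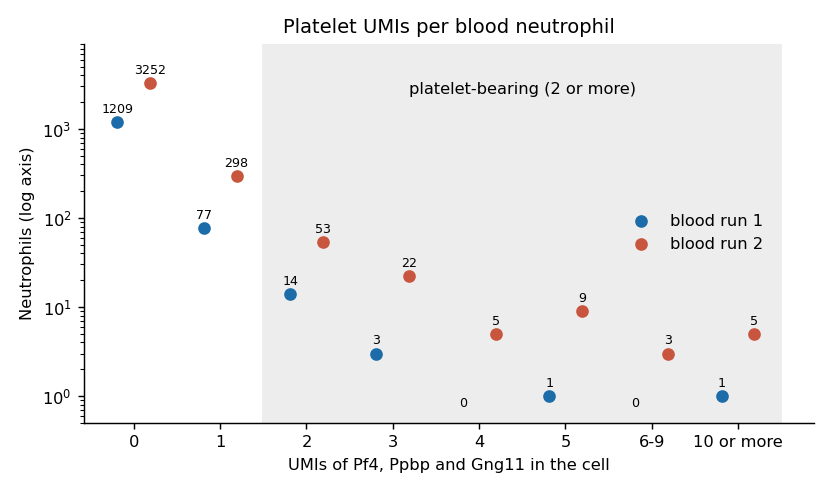
Number of blood neutrophils (log axis) by the UMIs of Pf4, Ppbp and Gng11 in the cell, for both libraries, with the count printed at each point. The shaded range marks the platelet-bearing cells, of which 14 of 19 in run 1 and 53 of 97 in run 2 held exactly 2 UMIs.

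The marker UMIs of the members were spread over all 3 genes. Pf4, Ppbp and Gng11 gave 27, 14 and 13 UMIs in run 1 and 114, 116 and 82 UMIs in run 2. All 3 genes were seen together in 4 of the 19 run 1 members and 18 of the 97 run 2 members, and 8 and 23 members held UMIs of 1 gene only. Ppbp took 49.2% of the marker UMIs in run 2 members with at least 5, against 26.2% in cells with exactly 1, while Gng11 took 17.5% against 31.9%. In GRCm38, Pf4 (chr5:90772435-90773383) and Ppbp (chr5:90768518-90770063) are neighbours on the same strand, and Gng11 lies at chr6:4003904-4008445.

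The share of platelet-bearing cells was 1.46% of neutrophils in blood run 1 (19 of 1305, 95% exact Clopper-Pearson interval 0.879% to 2.26%) and 2.66% in blood run 2 (97 of 3647, 2.16% to 3.24%), a mean of 2.06% ± 0.851 (SD, n = 2). With 500 UMIs drawn from every neutrophil that held as many, the shares were 0.860% (11 of 1279) and 1.18% (43 of 3647). These intervals cover counting error only. Over the quartiles of total UMIs in run 2 the share was 1.97%, 2.52%, 2.74% and 3.40% from the shallowest to the deepest, with overlapping intervals. In run 1 it was 1.53%, 2.15%, 0.920% and 1.23% over the quartiles and followed no such order.

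Other barcodes of the same blood libraries also bore platelet UMIs. Outside the neutrophil gate, 7 of 283 barcodes in run 1 (2.47%, interval 1.00% to 5.03%) and 30 of 1006 in run 2 (2.98%, 2.02% to 4.23%) held at least 2, at median depths of 1603 and 2256 UMIs. After thinning to 500 UMIs these shares were 1.78% (5 of 281) and 0.895% (9 of 1006). For neutrophils and other barcodes the intervals overlapped at this limit in both libraries, before and after thinning. At 1 or more UMIs after thinning they did not overlap in run 2, where neutrophils reached 6.55% (5.77% to 7.41%) and other barcodes 4.18% (3.03% to 5.60%), and they overlapped in run 1 at 4.38% and 3.56%. Summed over all cells, the 3 markers took 178 CPM of neutrophils and 93.9 CPM of other barcodes in run 2, but 96.6 and 206 CPM in run 1. The other barcodes are a mixed set that includes platelet-rich barcodes. B cell barcodes, which should not make these transcripts, reached 5.26% (1 of 19, interval 0.133% to 26.0%) and 4.08% (4 of 98, 1.12% to 10.1%) at medians of 1749 and 1689.5 UMIs, and haemoglobin-rich barcodes 0% (0 of 34, where 3 counts of the total would be 8.82%, the upper limit given here for a count of 0) and 2.79% (20 of 716). With so few and deeper B cell barcodes the share of neutrophils could not be set apart from this background, and it is not read here as particular to neutrophils.

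Neutrophils of healthy bone marrow and spleen held almost none. At least 2 platelet UMIs were found in 0 of 1194 bone marrow neutrophils of run 1 (up to 0.251% by that limit), in 1 of 3386 of run 2 (0.0295%), and in 0 of 1133 and 0 of 1955 spleen neutrophils (up to 0.265% and 0.153%). Blood lay above both other tissues in each run although bone marrow neutrophils were deeper, with medians of 2678 and 2125 UMIs. The blood files were named by the rule and the share is the value it uses, so this order is a description with no test. In the inflammation library, 0 of 408 neutrophils of healthy blood and 0 of 752 of arthritic blood met the limit, at medians of 2734 and 3647 UMIs, which allows shares of up to 0.735% and 0.399% by the same limit. Lung lavage after IL-1β held 3 of 291 (1.03%, interval 0.213% to 2.98%), an interval that includes the share of blood run 1, and joint lavage 5 of 2620 (0.191%). The presence of platelet UMIs in blood neutrophils was thus seen in both healthy blood libraries and not in the healthy blood cells of the hashtag library. These libraries differed in reagents by the study's methods, and the part of preparation in the difference cannot be told apart from that of the mice.

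**Figure D2:**
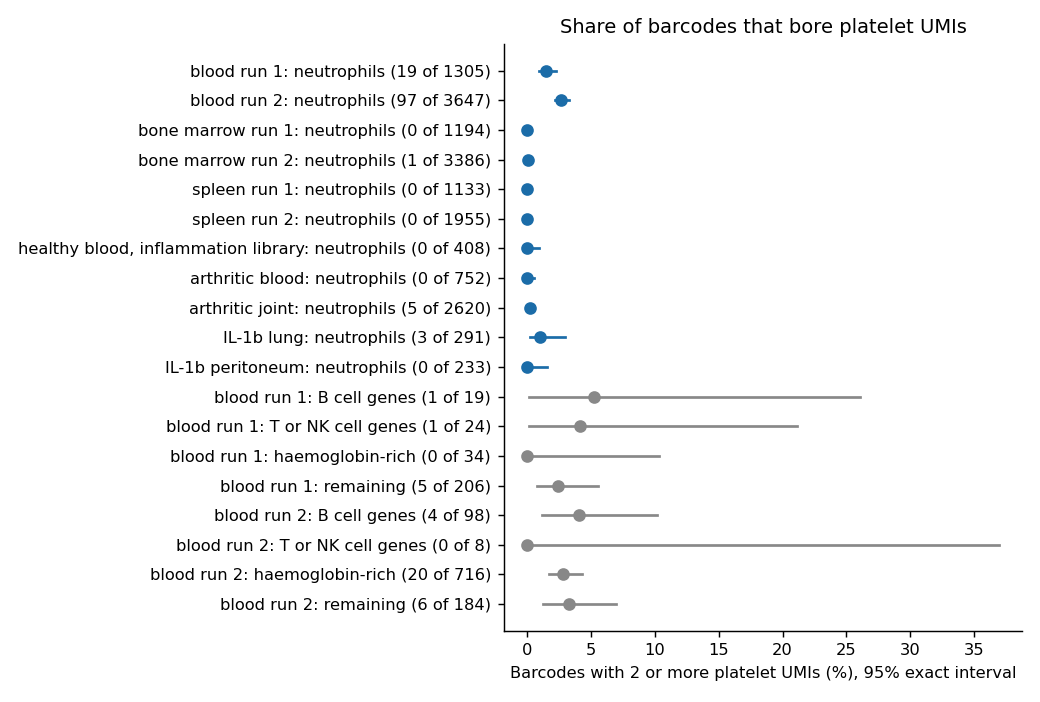
Percent of barcodes with at least 2 UMIs of Pf4, Ppbp and Gng11, with 95% exact binomial intervals, for neutrophils of every library or hashtag condition (blue) and for the other barcodes of both blood libraries (grey). Blood neutrophils at 1.46% and 2.66% lie above bone marrow and spleen neutrophils, with lung neutrophils at 1.03%, and within the intervals of the other blood barcodes of their library.

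Members were of ordinary size for blood neutrophils. Outside the platelet markers, run 1 members held a lowest, median and highest of 499, 746 and 2520 UMIs against 486, 802 and 8451 in 0-UMI cells, and run 2 members 602, 861 and 3998 against 588, 819 and 8756. Genes per cell had medians of 374 and 405 in members and 377 and 388.5 in 0-UMI cells, and 272 against 259 (run 1) and 267 against 265 (run 2) after thinning to 500 UMIs. Above 2000 UMIs lay 2 of 19 and 3 of 97 members, against 99 of 1209 and 73 of 3252 0-UMI cells. S100a8 and S100a9 made up 22.6% and 17.7% of the members' UMIs, against 25.4% and 17.9% in 0-UMI cells, and mitochondrial genes 0.170% and 0.258% against 0.154% and 0.25%.

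Other platelet transcripts came along with the 3 markers. Of 4119 genes tested by edgeR's quasi-likelihood test with the library as a block, 11 were higher in platelet-bearing cells at an FDR of 0.05 (0.267% of genes tested) and 1 was lower (0.0243%). The higher genes were Gp1bb, Gp9, Clu, Myl9, Ctla2b, Bin1, Tsc22d1, Itga2b, Ecm1, Ctla2a and Nrgn, of which 8 were on the lists of platelet and megakaryocyte genes. These lists were chosen with earlier results of these data known, so the overlap is a description and no support. The filter on low counts asked for 19.9 CPM in at least 2 of the 4 sums, and 9 of the 11 genes, all but Tsc22d1 and Ctla2a, lay below that in both 0-UMI sums. These 9 could be tested only by being high in the members of both libraries, so their direction in each library is no support. Without the filter the calls of Bin1, Ctla2b, Ecm1, Itga2b and Nrgn were lost (edgeR FDR 0.155, 0.215, 0.961, 0.168 and 0.733), while the other 6 and Clec1b were called. Without the library block, 6 genes were higher (Gp1bb, Gp9, Clu, Myl9, Tsc22d1 and Ctla2a) and 0 lower. With 2 pairs of sums the fit has 1 residual degree of freedom and borrows its spread from all genes, and classes were formed on UMIs of the same cells, so p-values speak of these sums and not of mice.

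The receptor of von Willebrand factor was seen through 2 of its subunits. Gp1bb, which encodes GPIb beta, gave 6 UMIs in run 1 members and 11 in run 2 members, or 426 and 138 CPM, against 3.24 and 4.05 CPM in 0-UMI cells. These were ratios of 132 (counting interval 28.1 to 813) and 34.2 (13.2 to 89.8). Gp9, the GPIX subunit of the same complex, stood at 426 and 201 CPM against 5.4 and 7.28. The fitted log2 fold was 5.43 ± 0.77 (SE) for Gp1bb and 4.96 ± 0.70 for Gp9 (edgeR FDR 2.11e-09 and 2.37e-09). UMIs of Gp1bb came from 13 members (3 in run 1 and 10 in run 2) and those of Gp9 from 14 (4 and 10), so neither gene rested on 1 cell. In run 1, 4 of the 6 Gp1bb UMIs and 3 of the 6 Gp9 UMIs came from 2 members with at least 5 platelet UMIs. The counting intervals take no account of this.

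Itga2b, the alpha IIb chain of the platelet fibrinogen receptor, was fitted at a log2 fold of 4.17 ± 0.81 (edgeR FDR 0.00013). This call rested on run 2, where members held 11 UMIs (138 CPM) and 0-UMI cells 6.47 CPM. In run 1 members it gave 1 UMI, a ratio of 13.2 with a counting interval of 0.278 to 118. Without the library block its FDR in edgeR was 0.111, and without the filter on low counts 0.168. Its partner Itgb3 gave 1 and 3 UMIs and a log2 fold of 2.08 ± 1.16 (edgeR FDR 1.00). Cd9, a tetraspanin of platelets that blood neutrophils also expressed, stood at 2200 and 2202 CPM in members against 883 and 1406 in 0-UMI cells, ratios of 2.49 (1.68 to 3.57) and 1.57 (1.34 to 1.82), but its log2 fold of 0.68 ± 0.34 did not pass with TMM factors (edgeR FDR 1.00) and passed on library totals alone (0.82, edgeR FDR 0.000438).

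Among genes for granule and secreted proteins, Clu, the chaperone clusterin of platelet alpha granules, stood at 284 and 151 CPM in members against 4.32 and 5.26 (log2 fold 4.93 ± 0.77, edgeR FDR 1.12e-07). Ctla2a, which encodes an inhibitor of cysteine proteases, was the most abundant further gene, with 40 and 103 UMIs in members, in 11 of 19 and 52 of 97 cells. Its level was 2839 and 1296 CPM against 95 and 136 in 0-UMI cells (log2 fold 3.70 ± 0.32, edgeR FDR 2.46e-26). Ctla2b, its near-identical neighbour on chromosome 13, followed at 213 and 101 CPM against 5.4 and 5.26 (edgeR FDR 0.000118), and reads of the 2 genes may be split between them by the counting. Ecm1, a secreted matrix protein, gave 1 and 7 UMIs (log2 fold 3.92 ± 0.90, edgeR FDR 0.00523), and this call did not hold without the library block.

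Myl9, a regulatory light chain of myosin that acts when platelets contract, stood at 497 and 164 CPM in members against 6.47 and 10.1 (log2 fold 4.4 ± 0.71, edgeR FDR 4.26e-07). Bin1, a protein that bends membranes, gave 3 and 9 UMIs against 3 and 17 in far larger 0-UMI sums (log2 fold 4.25 ± 0.81, edgeR FDR 9.76e-05), a call lost without the filter and at 3 or more platelet UMIs (edgeR FDR 0.155 and 0.0552). Actb (beta-actin), which was on no list and was chosen after its values were seen, stood at 32439 and 34152 CPM in members against 21895 and 22849, but was not called (log2 fold 0.29 ± 0.56, edgeR FDR 1.00). It was called on library totals alone (0.56, edgeR FDR 0.0426), and when the members were compared with 1-UMI neutrophils (log2 fold 0.63 ± 0.12, edgeR FDR 7.73e-05).

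Tsc22d1, a leucine zipper regulator of transcription, had the smallest FDR of all genes. It gave 11 and 52 UMIs in members, in 5 of 19 and 24 of 97 cells, or 781 and 654 CPM against 22.7 and 35.2 in 0-UMI cells (log2 fold 4.23 ± 0.34, edgeR FDR 5.91e-31). Nrgn, the calmodulin-binding protein neurogranin, was the weakest of the 11, at 213 and 113 CPM against 7.55 and 13.4 (log2 fold 3.26 ± 0.81, edgeR FDR 0.0195). Its call was lost without the filter and without the library block (edgeR FDR 0.733 and 0.276).

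**Figure D3:**
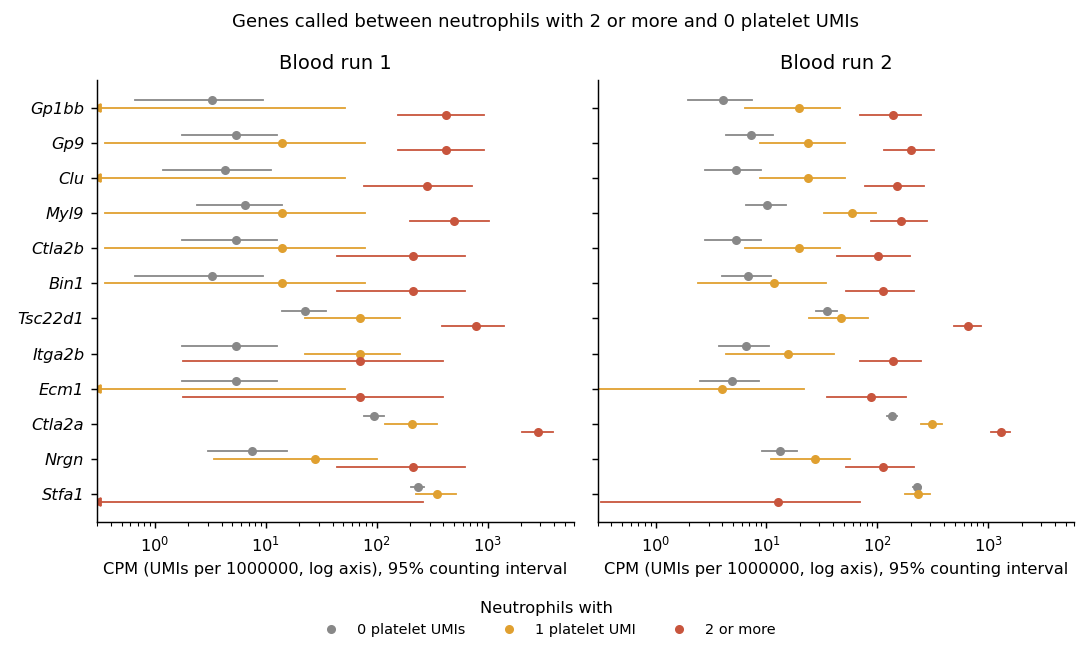
Level of each of the 12 called genes, in CPM on a log axis with 95% exact Poisson intervals, in neutrophils with 0 (grey), 1 (yellow) and at least 2 platelet UMIs (red) of both blood libraries. Triangles at the left edge mark sums with 0 UMIs. For 11 genes the red points lie to the right of the grey ones in both libraries, and for Stfa1 to the left.

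The lists held 89 symbols of platelet and megakaryocyte genes beside the markers, some of them older and newer names of 1 gene. Of these, 33 could be tested and 8 were called higher, beside 11 of all 4119 genes tested (0.267%). A gene that is nearly silent in neutrophils could pass the filter on low counts only through the members, so this count and the medians of the lists describe the result and do not support it. Of 7 tested genes under 15 CPM in both 0-UMI sums 6 were called, Alox12 being the exception (62.9 CPM in run 2 members, log2 fold 3.25 ± 0.97, edgeR FDR 0.229). Of 16 genes that 0-UMI neutrophils themselves held at 100 or more CPM, such as Srgn, Tagln2, Plek and Rap1b, 0 were called. This is at the share over all genes and says nothing particular about these 16. The other tested genes ranged between. The median log2 fold was 3.13 for the 6 receptor genes tested of 22, a value set by which genes passed, 0.00 for 7 granule genes of 16, 0.19 for 10 cytoskeletal genes of 17, 0.32 for 8 signalling genes of 23 and 0.11 for 2 transcription factors of 11, beside -0.18 over all genes tested.

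A further 31 symbols had UMIs in members but did not pass the filter on low counts, some of them because run 1 members held none. In run 2 members, Clec1b, the receptor CLEC-2, gave 15 UMIs in 13 cells, or 189 CPM against 6.47 in 0-UMI cells (ratio 29.2, counting interval 13.4 to 63.0), and it gave 0 UMIs in run 1 members. It was called in the fit without a filter on low counts (edgeR FDR 0.0223). Rgs10, a regulator of G protein signalling, gave 12 UMIs (ratio 14.9, 6.83 to 30.8), the actin-binding Cald1 8 (35.5, 11.3 to 115), Pdlim1 5 (155, 17.4 to 7353) and the GPV gene Gp5 4 (41.5, 7.01 to 283), all in run 2 and with 0 UMIs in run 1. Other defining genes were barely seen. Tubb1, the beta-tubulin of platelets, gave 1 UMI in all members, as did Vwf, Treml1, Selp and Gp1ba. The nuclear factors Gata1, Gfi1b, Tal1 and Zfpm1 gave 0 UMIs, and 25 symbols in all had no UMI in members. At the depth of the members, 1 UMI is worth more than the level of many of these genes, so their absence was not detectable.

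The receptor list, which shares no gene with the rule, was also counted cell by cell. With all its genes, 57.9% (interval 33.5% to 79.7%) and 82.5% (73.4% to 89.4%) of members held a UMI, against 44.9% (42.1% to 47.8%) and 61.5% (59.8% to 63.1%) of 0-UMI neutrophils, and the intervals overlapped in run 1. Cd9, which neutrophils express, gave most of these UMIs and was then left out. At least 1 such UMI was found in 6 of 19 members of run 1 (31.6%) and 39 of 97 of run 2 (40.2%), against 4.80% and 5.84% of 0-UMI neutrophils. With exactly 1 platelet UMI the shares were 9.09% and 12.8%. In sums, receptor UMIs without Cd9 stood at 766 and 794 CPM of all UMIs in members (intervals 419 to 1285 and 627 to 993) and at 49.9 and 69.1 in 0-UMI neutrophils. In run 1, 8 of the 14 UMIs came from the 2 members with at least 5 platelet UMIs, and the 14 members with exactly 2 stood at 147 CPM (17.8 to 531), against 412 CPM (252 to 637) in run 2. Most members showed none of these receptor transcripts at this depth.

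The summed level of the 11 further genes followed the number of platelet UMIs in the cell. In run 1 it was 164 CPM at 0 UMIs, 435 at 1, 3171 at 2, 7622 at 3 or 4 and 25786 at 5 or more, the last from 2 cells. In run 2 it was 235, 562, 1952, 3148 and 6395. The genes were chosen from the members, so this order is a description. With members above 4 UMIs left out, 9 genes were higher and 1 lower, and the log2 fold of Gp1bb was 4.74 and that of Tsc22d1 3.37.

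Blood barcodes outside the neutrophil gate, which took no part in choosing these genes, also held these transcripts. With 2 to 9 platelet UMIs, their summed level of the 11 genes was 3125 CPM in run 1 (4 barcodes) and 1273 in run 2 (28 barcodes), against 235 and 122 in such barcodes with 0. Of the 11 genes, 8 had a UMI in these 4 barcodes and 10 in these 28, and for 5 and 4 of them the exact interval lay above that of barcodes with 0. Ctla2a, Gp9, Myl9 and Tsc22d1 were the 4 in run 2, while Ecm1 had no UMI there and Gp1bb, Itga2b and Ctla2b had none in run 1. The rule left out 3 barcodes of run 1 and 2 of run 2 with 10 or more platelet UMIs. Of these, 3 were platelet-rich and poor in S100 genes, with 38, 35 and 51 platelet UMIs among 603, 570 and 968 UMIs, and with 39, 34 and 38 receptor UMIs. Their 1.33% or less of S100 UMIs kept them outside the gate. The highest members reached 12 and 14 platelet UMIs, of 645 and 4012 UMIs in all. UMIs of the accompanying platelet genes were therefore also found in barcodes outside the gate.

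**Figure D4:**
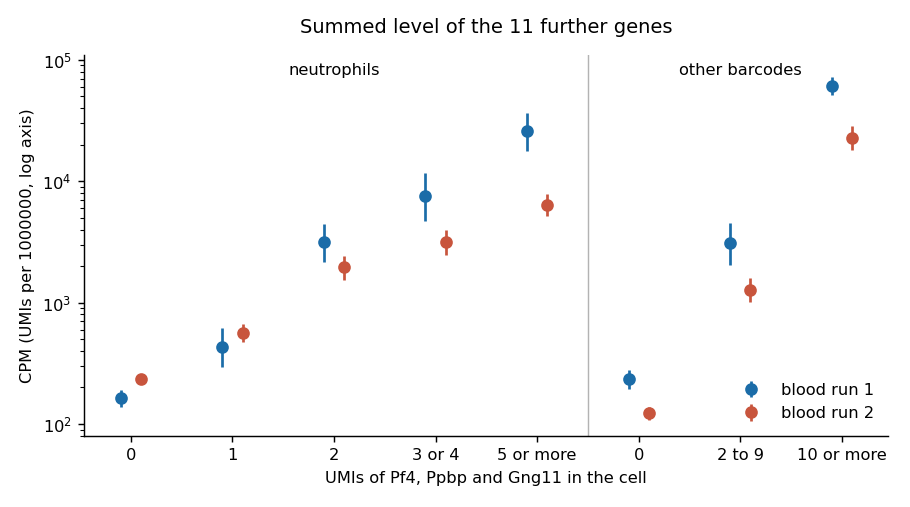
Summed level of the 11 further genes (CPM, log axis, 95% exact Poisson intervals) by platelet UMIs in the cell, for neutrophils on the left and the other blood barcodes on the right, in run 1 (blue) and run 2 (red). In both libraries the level is higher at 2 UMIs (3171 and 1952) than at 1 (435 and 562) and 0 (164 and 235), and barcodes outside the gate show a like order.

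The neutrophil transcriptome of the members was tested through 7 lists with 97 testable genes. Of these, 0 were called by edgeR and 0 by DESeq2. With 0.267% and 0.0243% of all genes called higher and lower, a count of 0 among 97 is at the background and says nothing particular about these lists. At an unadjusted p below 0.05 edgeR gave 2 of the 97 higher, beside 28 of all 4119 genes (0.680%), Itgb1 and Alox12, which platelets also express, and 2 lower, beside 52 of all genes (1.26%), the interferon-stimulated Isg15 and Oasl2 (edgeR FDR 0.191, 0.229, 1.00 and 1.00). The median log2 fold over the 97 genes was -0.25, beside -0.18 over all genes. With library totals in place of TMM factors the median of all genes moved to -0.02, so differences of this size depend on the scaling and are not read as lower expression.

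The genes that define neutrophils were held at high levels by members as a whole. The identity list summed to 72047 and 70292 CPM against 76941 and 75067 in 0-UMI cells, ratios of 0.94 (0.88 to 1.00) and 0.94 (0.91 to 0.96), so the members carried the marker RNA of neutrophils beside that of platelets. The median log2 fold of the list moved from -0.33 to -1.33 in members with at least 5 platelet UMIs and to -0.69 without run 2. It was -0.02 without run 1 and -0.03 against 0-UMI cells matched on total UMIs. In the 2 run 1 members with at least 5, S100a8 and S100a9 took 6.54% of UMIs, against 18.9% in the 17 of run 2. The latter is a sum in which deep cells weigh most. Among the 5 run 2 members with 10 or more platelet UMIs, 1 cell of 4012 UMIs stood at 37.3%. The others stood at 17.7%, 12.8%, 6.79% and 5.21%, so members poor in S100 genes were found in both runs. Csf3r, the G-CSF receptor, stood at 1704 and 2064 CPM against 1922 and 2017 (log2 fold -0.30 ± 0.35). Cxcr2, the receptor for CXCL chemokines, stood at 1562 and 1674 against 1230 and 1535 (-0.03 ± 0.34), and Ly6g, on which the cells were sorted, at 355 and 315 against 535 and 178 (0.14 ± 0.38). None of these passed the test, and the 95% interval of the Csf3r log2 fold, from -0.98 to 0.39, shows how wide the limits were.

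Of the adhesion partners of platelets on neutrophils, 13 were tested and 0 were called by edgeR or by DESeq2, again at the background share. Selplg, the ligand of P-selectin, stood at 1845 and 1510 CPM in members against 1421 and 1547 in 0-UMI cells (log2 fold -0.11 ± 0.34, 95% interval -0.78 to 0.55). Itgam and Itgb2, the chains of Mac-1, had log2 folds of -0.75 ± 0.43 and -0.19 ± 0.36 (edgeR FDR 1.00 for each). Summed over the list the ratios were 1.06 (0.86 to 1.29) and 0.94 (0.86 to 1.03).

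Of 16 activation genes, 15 immediate early genes and 8 genes of eicosanoid synthesis tested, 0 were called by edgeR or DESeq2, which is also the background share. The activation list summed to 6530 and 8708 CPM in members against 6214 and 9002 (ratios 1.05 and 0.97), immediate early genes to 10150 and 15163 against 11216 and 16069 (0.90 and 0.94), and genes of eicosanoid synthesis to 6388 and 6304 against 7002 and 6326 (0.91 and 1.00). Interferon-stimulated genes stood at 0.87 (0.74 to 1.01) and 1.01 (0.95 to 1.06) of the level in 0-UMI cells. Il1b, a cytokine that blood neutrophils of both libraries held in quantity, stood at 2342 and 4253 CPM against 2556 and 4578 (log2 fold -0.37 ± 0.38, edgeR FDR 1.00).

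Stfa1, which encodes the protease inhibitor stefin A1, was the only gene called lower (log2 fold -4.55 ± 0.90, edgeR FDR 0.000185). It gave 0 and 1 UMIs in members against 218 and 564 in 0-UMI cells, or 235 and 228 CPM. In run 1 the members' exact Poisson interval at 0 UMIs reached 262 CPM and held the level of 0-UMI cells, so the difference was carried by run 2. The transcript was concentrated in few cells, 59 of 1209 and 124 of 3252 in the 0-UMI class. Reads may be split between it and near-identical stefin genes, of which Stfa2l1 and Gm5483 had log2 folds of -0.17 ± 0.35 and 0.03 ± 0.34. DESeq2 did not call Stfa1 (adjusted p = 0.638), nor did the edgeR fit without the library block (FDR 0.146).

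Genes of other cells were set beside these results. Erythroid genes summed to 1420 and 51996 CPM in members against 964 and 34320 in 0-UMI cells, ratios of 1.47 (0.90 to 2.29) and 1.52 (1.47 to 1.56). Of 9 tested genes 0 were called, again at the background share. The intervals cover counting error and not the spread between cells. In run 2, haemoglobin stood at 13683 CPM of all UMIs in members with exactly 2 platelet UMIs. It stood at 85742 with 3 or 4 and 47993 with at least 5, against 27960 in 0-UMI cells. The excess was thus not shared by the members with exactly 2. On library totals alone 15 genes were higher, among them the haemoglobin genes Hba-a1 (log2 fold 0.84, edgeR FDR 0.000438) and Hba-a2 (0.70, FDR 0.0138) beside 9 of the 11 further genes. In run 2, haemoglobin took a median of 13 UMIs per member against 10 per 0-UMI cell, and 1 member and 19 0-UMI cells had it at 50% or more of their UMIs. With such cells left out, 11 genes were still higher and 1 lower, 8 of them platelet list genes. With all cells above 5 haemoglobin UMIs left out only 2 were called, with 1367 genes testable. These were Tsc22d1 (log2 fold 4.90, edgeR FDR 3.75e-11) and Ctla2a (edgeR FDR 0.000642), both with a fold no smaller than before, and the other 9 further genes were not testable there. B cell genes stood at 71.0 and 428 CPM in members against 96.0 and 527, T and NK cell genes at 71.0 and 50.3 against 126 and 51.4, monocyte genes at 1562 and 1246 against 2175 and 1331, genes of eosinophils, basophils and mast cells at 71.0 and 50.3 against 58.3 and 42.1, and cycling genes at 1207 and 2026 against 1654 and 1949. The part of red-cell RNA in the platelet result was otherwise not tested.

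Neutrophils with exactly 1 platelet UMI differed from the members. Against 0-UMI cells, 14 of 4502 genes were higher in them (0.311%) and 0 lower by edgeR, with 119 and 117 at an unadjusted p below 0.05. The 14 were led by haemoglobin and granule genes, among them Camp (log2 fold 0.88, edgeR FDR 0.00277), Ngp (0.83, FDR 0.00248), Chil3 and Ltf, and of the 3 further genes that could be tested Ctla2a was called (1.18, edgeR FDR 0.0011), but not Tsc22d1 (0.74, FDR 0.998) or Nrgn (1.21, FDR 0.952). The other 8 were not tested there. Granule genes summed to 1.31 (1.27 to 1.35) and 1.52 (1.47 to 1.56) times the 0-UMI level in 1-UMI cells, and to 0.90 (0.83 to 0.97) and 1.09 (1.02 to 1.15) times in platelet-bearing cells. Total UMIs moved with this, since 1-UMI cells were deeper, at medians of 881 and 862. Against 0-UMI cells matched on total UMIs, 5 genes were higher (0.161%) and 1 lower (0.0321%), and Camp and Ngp stood at 0.06 and -0.06.

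Set directly against 1-UMI neutrophils, platelet-bearing cells had 7 of 1176 genes higher (0.595%) and 5 lower (0.425%). The higher ones were Ctla2a, Tsc22d1, Gp9, Gp1bb, Clu, Myl9 and Actb, 6 of which were on the platelet lists. The lower ones were the granule genes Camp (log2 fold -0.94, edgeR FDR 2.32e-07) and Ngp (-0.92, FDR 6.57e-06), and Stfa1, Plac8 and Xpc. Camp was held by 7 of 19 and 8 of 97 members, beside 33 of 77 and 20 of 298 1-UMI cells. Ngp was held by 5 and 9 members, beside 29 and 35 1-UMI cells. These sums were thus carried by a part of the cells, and this comparison was not matched on total UMIs. The filter on low counts sets its limit in CPM by the size of the sums, so it was higher here than 19.9 CPM. Of the platelet genes called higher, Ctla2a alone was above it in both 1-UMI sums. Gp1bb, Clu, Gp9, Myl9 and Tsc22d1 could be tested only through the members, so their calls are a description, and the other 5 further genes could not be tested there.

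**Figure D5:**
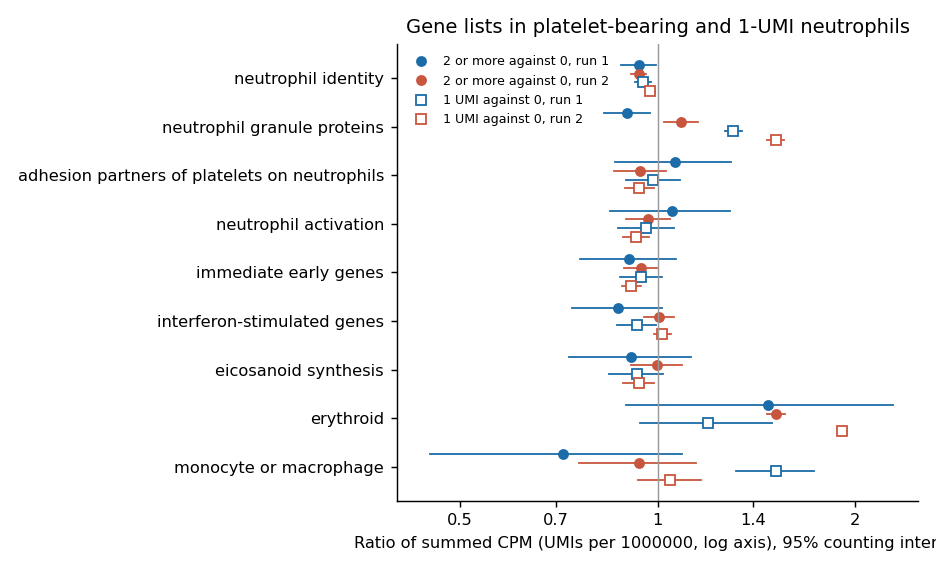
Ratio of the summed CPM of each gene list to that of 0-UMI neutrophils (log axis, 95% exact counting intervals), for platelet-bearing cells (filled circles) and 1-UMI cells (open squares) of run 1 (blue) and run 2 (red). The neutrophil lists of platelet-bearing cells lie between 0.87 and 1.09, while granule genes of 1-UMI cells lie at 1.31 and 1.52 and erythroid genes of run 2 at 1.52 and 1.91. The intervals cover counting error and not the spread between cells.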

How the data were processed

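The authors aligned reads to mm10 with Cell Ranger and deposited raw UMI counts per gene and barcode before their cell filters, and the labels name reagent versions 1 to 3 without assigning them. The count tables of run 1 list only detected genes. Members and gene lists were chosen with earlier results of these data known. Counts of 7 libraries were read, and the rule was applied to each barcode. No doublet caller was run and free RNA was not subtracted. Counts of blood neutrophils were summed per library and class, without the 9 rule genes, and fitted in edgeR 4.0.16 (R 4.3.3) by the quasi-likelihood test with TMM factors (1.376, 0.967, 0.881 and 0.852), filterByExpr and the library as block, which pairs classes of the same pooled mice. Genes were called at a Benjamini-Hochberg FDR of 0.05. DESeq2 1.42.0 was an alternative. Intervals are exact at 95% (scipy 1.17.1), and the upper limit for a count of 0 is 3 counts of the total. The script was tested on simulated data. Named genes were the called genes with the largest folds in each direction (12 at most) and of one sign in both libraries, called list genes, and fixed receptors of platelets and neutrophils. The precision follows from 14088 to 2471011 UMIs per sum. Positions are from GENCODE M21 (GRCm38). The values of 2 genes on the lists are not reported here.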

Additional observations from a re-analysis of the deposited data

Results flagged for a closer look

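Cells meeting the same limit were found in 2 inflamed sites of the hashtag library, while the healthy blood of that library held 0 of 408. In lung lavage after IL-1β, 3 of 291 neutrophils held at least 2 platelet UMIs (1.03%, exact interval 0.213% to 2.98%), and in arthritic joint lavage 5 of 2620 (0.191%, 0.0620% to 0.445%). The interval of the lung overlaps the limit of 0.735% that 0 of 408 allows. These neutrophils were deep, with medians of 4287 and 3616 UMIs, and after thinning to 500 UMIs 0 remained in either site. Their UMIs were mostly of Pf4, with 10 of Pf4, 4 of Ppbp and 0 of Gng11 in the lung and 9, 1 and 0 in the joint, and 2 of 3 and 4 of 5 cells held Pf4 alone. None of the 11 further genes had a UMI in these 8 cells. Pf4 is also known from macrophages, and genes of the monocyte or macrophage list gave 10 UMIs in the lung cells and 50 in the joint cells, with 0 UMIs of C1qa, C1qb and C1qc, and their part in the result was not tested. Each site is 1 hashtag of 1 library, so there is no replicate.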

How the results depend on the processing

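The count of 11 higher genes became 7 without the filter on low counts, 6 without the replicate block, 5 at 5 or more platelet UMIs, 6 against 0-UMI cells matched on total UMIs, 2 without cells above 5 haemoglobin UMIs and 7 against 1-UMI cells. It ranged from 8 to 15 under DESeq2, RLE factors, totals alone, 3 or more UMIs, cell filters, an S100 gate of 10%, members with 2 to 4 UMIs and without haemoglobin-rich cells. The last 2, the 1-UMI comparison and its matched form were chosen after seeing the data. Gp1bb, Gp9 and Clu were called in 13 of 13 alternatives that could fit them, Ctla2a and Tsc22d1 in 14 of 14, Nrgn in 3 of 11 and Stfa1 in 7 of 13. The lower count of 1 became 0 under DESeq2, without the block, at 3 or 5 UMIs, matched, at the 10% gate and without cells above 5 haemoglobin UMIs, and 5 against 1-UMI cells. Platelet list calls (8) became 5 at 5 or more UMIs and 2 without cells above 5 haemoglobin UMIs, where fewer cells and genes remain. Neutrophil list calls stayed at 0, except for 2 (Camp and Ngp) against 1-UMI cells. The 14 genes of 1-UMI cells became 5 when matched. The mean share of 2.06% became 9.09% at 1 or more UMIs, 0.795% at 3, 0.310% at 5 and 1.02% after thinning, and 1.46% to 2.66% without 1 library.

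Median log2 folds of neutrophil lists at 5 or more UMIs were -1.33 (identity), -1.26 (granule), -0.98 (adhesion), -0.48 (activation), -1.39 (immediate early), -1.29 (interferon) and -1.05 (eicosanoid), from 2 and 17 cells. At 3 or more they were -0.64 (identity), -0.67 (granule), -0.54 (adhesion), -0.39 (activation), -0.78 (immediate early), -0.80 (interferon) and -0.25 (eicosanoid). Against 0-UMI cells matched on total UMIs they were -0.03 (identity), -0.20 (granule), 0.10 (adhesion), 0.15 (activation), -0.07 (immediate early), -0.03 (interferon) and 0.05 (eicosanoid). Without 1 library they ranged from -0.69 to -0.02 (identity), -0.58 to 0.01 (granule), -0.52 to -0.073 (adhesion), -0.37 to -0.05 (activation), -0.83 to -0.14 (immediate early), -1.21 to -0.082 (interferon) and -0.59 to 0.20 (eicosanoid), and the cause was not tested. Of the single genes' tested values under alternatives, 227 kept their side of the threshold, 27 lost their call and no called gene changed direction. Without 1 library, where there is no test, 38 of their values kept their direction and 2 uncalled genes did not (Ly6g -1.12, Cxcr2 0.07). The fit of all 6 healthy libraries was not run, since the other 4 hold 1 member in all, and counts without 1 library have no residual degree of freedom.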

Other observations

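The only bone marrow neutrophil that met the limit, in run 2, held 12224 UMIs, with 2 of Pf4, 1 of Ppbp and 2 of Gng11, and 1 UMI of the 11 further genes.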
